A study of Macaca mulatta with 5 samples.

Results

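Interstitial cell lineages c22 and Interstitial Cell Lineages c24 are 2 of the 37 clusters that the study's authors named in an integration of fetal kidney cells, and the spelling of both names is theirs. Their members are the cells that carry either name, 275 cells for c22 and 1000 cells for c24, together 1275 of the 36039 cells analysed here (3.54%). Both belong to the stroma, taken here as the 6 clusters named Fibroblast, Interstitial or Stromal-Microvascular, which hold 5971 cells. The tissue was fetal kidney of the rhesus macaque (Macaca mulatta), enriched for cortex and collected from late in the second trimester onward. In libraries 600 and 628 cortex was cut out by hand and digested with enzymes that work in the cold. For libraries 623, 627 and 632 the suspension was made by vortexing in the cold with a B mix labelled as Bacillus licheniformis, which biases it to cortex. The dissected material came from 2 donor kidneys. The labels give no fetal age, sex or batch for a single library, so effects of these and of the preparation cannot be told apart.

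The kidney interstitium is the tissue between the tubules, and it holds fibroblasts, pericytes and smooth muscle cells around vessels. In the mouse, much of it descends from progenitors that express Foxd1, a transcription factor of the cortical stroma, and these give rise to interstitial fibroblasts, pericytes and the mesangial cells of the glomerulus. PDGFRB, the receptor by which pericytes and mesangial cells receive platelet-derived growth factor, MEIS1, a homeobox factor of stromal nuclei, and ACTA2, the actin of contractile cells, are further markers of these lineages. The deposited table has 0 columns of gene values, so neither cluster name could be checked against FOXD1, PDGFRB, MEIS1 or ACTA2. What the table gives for each cell is its cluster name, its library, its species and its position in the authors' embedding, an arbitrary layout in which cells with like profiles tend to lie near each other.

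The 5 libraries held 6839 cells (600), 6329 (628), 9816 (623), 10502 (627) and 2553 (632). Reads or molecules per cell are not in the table, so sequencing depth is unknown. Human cells and the other libraries of the table were not analysed here, so the species balance of the clusters was not measured. Cells of 1 library are not replicates, and comparisons were made over libraries. Nothing states that the libraries came from separate animals, so a p-value here sets a difference against the spread among these 5 libraries, and that spread may be technical.

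Cluster c22 was a rare population of nearly the same frequency in 4 of the 5 libraries. It made up 1.45% of dissected library 600 (99 cells, exact Clopper-Pearson 95% interval 1.18 to 1.76) and 0.537% of dissected library 628 (34 cells, 0.372 to 0.750). In the vortexed libraries it made up 0.744% of 623 (73 cells, 0.583 to 0.934), 0.524% of 627 (55 cells, 0.395 to 0.681) and 0.548% of 632 (14 cells, 0.300 to 0.918). Library 600 alone stood apart, its interval lying above those of the other 4 libraries, and it supplied 36.0% of all c22 cells while holding 19.0% of all cells. The mean over libraries was 0.760% ± 0.395 (SD, n = 5), which ranked c22 27th of the 37 clusters by abundance. The intervals cover counting error only.

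Cluster c24 was more frequent in every library. It made up 2.59% of dissected library 600 (177 cells, 2.22 to 2.99) and 2.45% of dissected library 628 (155 cells, 2.08 to 2.86). Vortexed library 623 held 1.75% (172 cells, 1.50 to 2.03), 627 held 4.20% (441 cells, 3.82 to 4.60) and 632 held 2.15% (55 cells, 1.63 to 2.80). Here library 627 was the high one, with 44.1% of all c24 cells against 29.1% of all cells, while the dissected pair lay within each other's intervals. The mean was 2.63% ± 0.935 (SD, n = 5), rank 17 of 37. Measured by the SD of the log2 odds of the share over the 5 libraries, c24 was the 4th most even of the 37 clusters (SD 0.48) and c22 the 11th (SD 0.62). The other stromal clusters varied more on this scale, with SDs of 1.00 for Fibroblast c26, 1.09 for Interstitial Cell Lineages c16, 1.66 for Fibroblast c21 and 1.83 for Stromal-Microvascular c4.

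**Figure D1:**
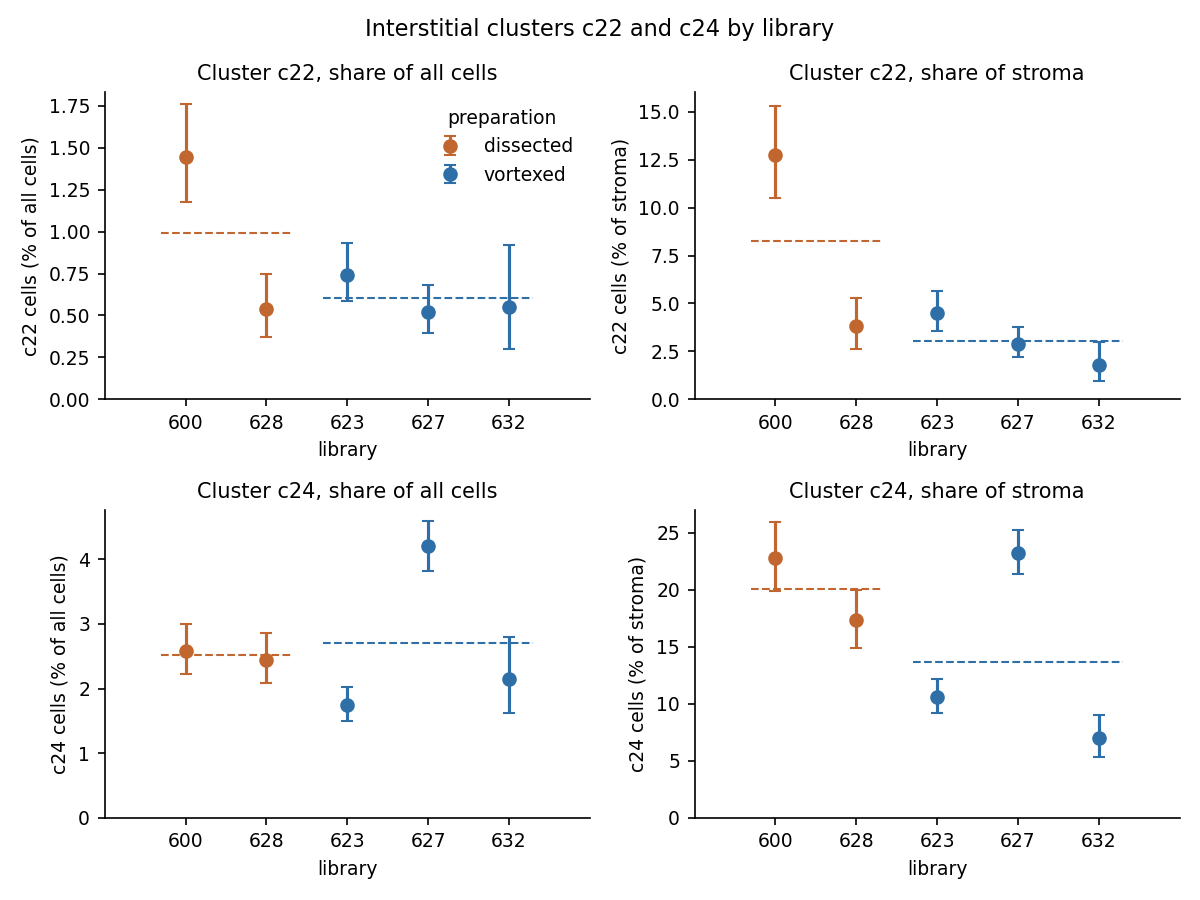
Share of cluster c22 (top) and c24 (bottom) among all cells (left) and among stromal cells (right) in each library, in percent; bars are exact 95% binomial intervals, and dashed lines are the means of the 2 dissected and 3 vortexed libraries. Library 600 is high for c22 (1.45% of cells, 12.8% of stroma) and library 627 is high for c24 (4.20% of cells, 23.2% of stroma), and the preparations overlap in all 4 panels.

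Within the stroma, the 2 clusters together made up 35.6% of stromal cells in dissected library 600 and 21.2% in dissected library 628, against 15.1%, 26.1% and 8.80% in vortexed libraries 623, 627 and 632. Cluster c22 contributed 12.8% and 3.81% of dissected stroma, against 4.50%, 2.90% and 1.79% of vortexed stroma. Cluster c24 contributed 22.8% and 17.4%, against 10.6%, 23.2% and 7.02%. The low values of both clusters in library 632 stood beside a stroma that was 30.7% of all its cells and 63.8% Interstitial Cell Lineages c16. Of the cells with an interstitial name (c16, c22 and c24), c22 held between 2.46% (632) and 16.2% (600), and c24 between 9.67% (632) and 45.4% (627).

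The balance between the 2 clusters leaned to c24 in 5 of 5 libraries. There were 99 c22 cells and 177 c24 cells in library 600, 34 and 155 in 628, 73 and 172 in 623, 55 and 441 in 627, and 14 and 55 in 632. The ratio of c22 to c24 therefore ran from 0.125 in library 627 to 0.559 in library 600. On the log2 scale, with 0.5 cells added to each count, it averaged -1.83 ± 0.84 (SD, n = 5; exact two-sided sign-flip permutation test, p = 0.063, the smallest that 5 libraries allow). Over the family of 5 exact tests run on these clusters the Benjamini-Hochberg adjusted p was 0.3125. With 5 libraries no adjusted p of this family could fall below the threshold of 0.05. The test therefore could not decide on the excess of c24, which every library showed. With cells of the main patch of each cluster alone (patches are described further on) the mean log2 ratio was -2.35.

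The labels imply a comparison of dissected with vortexed suspensions, and neither cluster could be told apart between them. Across all 37 clusters, limma, run on log2 odds of each share, called 0 clusters at an adjusted p below 0.05 (0.0% of clusters). It gave 5 with an unadjusted p below 0.05 (13.5%), neither c22 nor c24 among them, and between 2 and 6 such clusters under the alternatives tried. Cluster c22 averaged 0.992% ± 0.644 in dissected (SD, n = 2) and 0.605% ± 0.121 in vortexed libraries (SD, n = 3), a log2 odds ratio of 0.56 (SE 0.72, 95% interval -1.11 to 2.22, limma adjusted p = 0.776). Without library 600 it turned to -0.16. Cluster c24 averaged 2.52% ± 0.0983 in dissected and 2.70% ± 1.31 in vortexed libraries, with a log2 odds ratio of -0.0015 (SE 0.70, 95% interval -1.63 to 1.62, limma adjusted p = 0.998). Without library 627 that value was 0.38. The intervals leave room for differences of several fold in either direction. Over all 37 clusters the median log2 odds ratio was 0.25, with 20 clusters above 0 and 17 below. The shares of 11 of the 37 clusters (29.7%) did not overlap between the preparations, and c22 and c24 were not among those 11.

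As a share of stroma, c22 made up 8.28% ± 6.33 in dissected and 3.06% ± 1.37 in vortexed libraries. The difference of 5.22 percentage points (exact two-sided permutation test, p = 0.2, adjusted p = 0.5 over 5 tests) was 0.745 points without library 600. Cluster c24 made up 20.1% ± 3.86 in dissected and 13.6% ± 8.53 in vortexed stroma (exact permutation p = 0.5, adjusted p = 0.625). That difference of 6.46 points was 11.3 without library 627, 3.15 without 632 and 3.73 without 600. The log2 ratio of c22 to c24 averaged -1.50 ± 0.95 in dissected and -2.05 ± 0.89 in vortexed libraries (exact permutation p = 0.5, adjusted p = 0.625), and the difference of 0.55 turned to -0.12 without library 600. The combined share was 3.51% ± 0.742 in dissected and 3.31% ± 1.23 in vortexed libraries (exact permutation p = 0.9, adjusted p = 0.9). With 2 libraries against 3, the smallest p these permutation tests can give is 0.1.

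The positions in the embedding showed that the 2 clusters keep different company. Every c22 or c24 cell was matched to the 15 closest cells from its own library that had a different name, leaving out clusters named by a cell cycle phase. Only libraries in which the cluster had 20 or more cells were used. Positions come from the same integrated data as the cluster names, so these values are descriptions and no test was made of them. Library 632, with 14 c22 cells, gives no value for c22.

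The differently named cells closest to c22 were mostly Fibroblast c21. That single cluster made up 69.0% of the neighbours of c22 in dissected library 600, 55.1% in dissected 628, 62.8% in vortexed 623 and 58.8% in vortexed 627, although it was only 0.330%, 3.80%, 4.29% and 2.10% of the other cells there. It was over-represented between 14.5-fold (628) and 209-fold (600), and no other name averaged 10% of the neighbours of c22. The values of library 600 rest on only 21 Fibroblast c21 cells. There the nearest of these differently named cells lay at a median distance of 0.779 embedding units from a c22 cell. That distance was 0.186 units in library 628, 0.144 in 623 and 0.264 in 627. All stroma together made up 71.8% ± 2.54 of the neighbours (SD, n = 4), against 17.4% of the other cells. The remainder was led by NPC c25, the cells the authors named as nephron progenitors, at 6.40%, and Podocyte c20, the filtering cells of the glomerulus, at 4.80%. The podocyte share came almost wholly from library 600, with 18.5% there and at most 0.392% in libraries 628, 623 and 627. Podocytes were 19.0% of the other cells in library 600, so over all c22 cells they were not in excess there.

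Cluster c24 lay among 4 names that are not all stromal. Fibroblast c26 averaged 29.8% ± 5.61 of its neighbours (SD, n = 5), Podocyte c20 28.7% ± 11.5, NPC c25 16.8% ± 7.64 and Epithelial c23, an epithelium with no segment in its name, 10.5% ± 3.69. Fibroblast c21, the main neighbour of c22, averaged 0.798%. Stroma made up 31.8% ± 5.72 of the neighbours, against 18.5% of the other cells. In libraries 600, 628, 623 and 627 stroma was more frequent among the neighbours than among other cells. In library 632 it was less frequent, with 24.8% against 30.8%. There Interstitial Cell Lineages c16 was 2.18% of the neighbours against 21.1% of the other cells. Fibroblast c21 (0.121% against 6.03%) and c22 (0.121% against 0.591%) were also less frequent, whereas Fibroblast c26 was 22.3% against 3.00%. A low share of stroma among the neighbours was not particular to c24. It averaged 21.3% for Fibroblast c26 and 1.97% for Interstitial Cell Lineages c16, but 82.2% for Fibroblast c21. For Stromal-Microvascular c4 it was 0% in library 600, the only library with enough c4 cells.

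Fibroblast c26 was over-represented beside c24 everywhere, least in library 627 (3.40-fold) and most in library 600 (17.5-fold), and Epithelial c23 likewise, least in 628 (2.49-fold) and most in 632 (9.05-fold). Podocytes made up 45.6% and 32.8% of the neighbours in dissected 600 and 628, against 16.6%, 19.7% and 29.0% in vortexed libraries 623, 627 and 632. These percentages do not overlap between the preparations, but they were singled out after they had been seen and were not tested. Podocytes were 19.3% and 2.69% of the other cells in libraries 600 and 628, against 3.11%, 4.18% and 4.60% in 623, 627 and 632. Relative to that frequency they were 2.36-fold and 12.2-fold over-represented beside c24 in libraries 600 and 628, against 5.34-fold, 4.72-fold and 6.30-fold in 623, 627 and 632, and on this scale the preparations overlap. NPC c25 was not over-represented throughout, with a ratio of its share among the neighbours to that among other cells of 0.750 in library 623 and 9.19 in library 632.

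**Figure D2:**
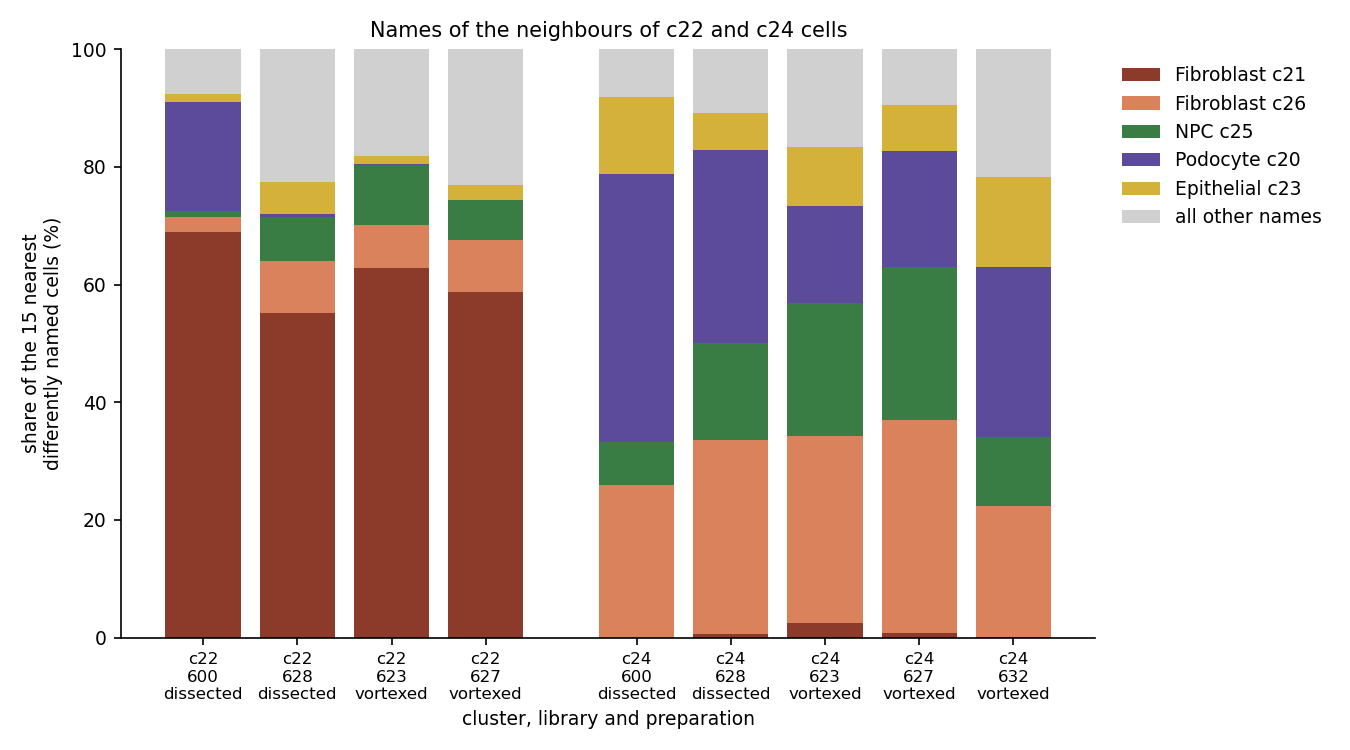
Cluster names of the 15 nearest differently named cells of the same library, in percent, for c22 (4 libraries with at least 20 cells) and c24 (5 libraries). Fibroblast c21 fills 55.1% to 69.0% of the c22 bars and at most 2.48% of the c24 bars, which are filled mainly by Fibroblast c26, Podocyte c20, NPC c25 and Epithelial c23.

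Seen from the other side, c24 was the nearest other name to podocytes and c22 the nearest other name to Fibroblast c21. Most of the 15 nearest cells of any name carried the cell's own name in both clusters. That share averaged 89.6% over libraries for Podocyte c20 and 74.4% for Fibroblast c21. Among the differently named neighbours of Podocyte c20 cells, c24 made up 79.4% in dissected 600, 89.0% in dissected 628, 82.0% in vortexed 623, 92.9% in vortexed 627 and 91.3% in vortexed 632, while it was 2.15% to 6.02% of the other cells. Among the neighbours of Fibroblast c21, c22 made up 96.8% and 79.4% in libraries 600 and 628 and 69.6%, 81.2% and 48.2% in libraries 623, 627 and 632, while it was 0.613% to 1.54% of the other cells. The c21 value of library 600 rests on 21 Fibroblast c21 cells. The 2 interstitial clusters were seldom neighbours of each other: c24 averaged 2.17% of the neighbours of c22 against 3.39% of other cells, and c22 averaged 0.374% of the neighbours of c24 against 0.895% of other cells.

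On the mean over libraries, cells of both clusters had more nearest cells of other names than of their own. Among the 15 nearest cells of any name, c22 cells found their own name in 75.1% of cases in library 600 and in 17.3% in library 628, and in 39.1% and 41.1% in libraries 623 and 627 (mean 43.1% ± 23.9, SD, n = 4). For c24 the own-name share was 44.4%, 44.8%, 46.2% and 45.5% in libraries 600, 628, 623 and 627, and 32.7% in library 632 (mean 42.7% ± 5.64, n = 5). By this mean the clusters ranked 27th and 28th of the 34 clusters that could be ranked. Among the stromal clusters, Fibroblast c21 averaged 74.4% and Interstitial Cell Lineages c16 69.4%, both above c22 and c24, and Fibroblast c26 averaged 30.1%. These shares and ranks also depend on how frequent a cluster is. Relative to the cluster's frequency in the library, the share was 33.1-fold to 79.9-fold for c22 and 10.9-fold to 26.5-fold for c24. It was 15.5-fold to 167-fold for c21, 4.10-fold to 16.6-fold for c16 and 5.63-fold to 15.5-fold for c26.

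**Figure D3:**
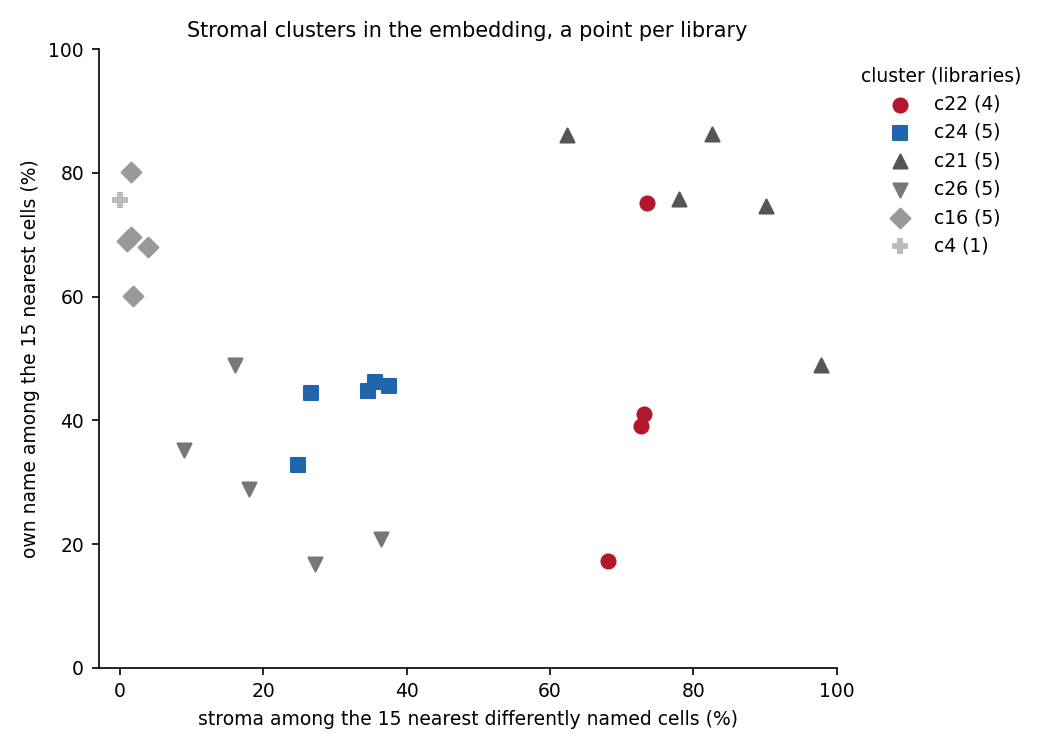
For each stromal cluster and library, the share of stroma among the 15 nearest differently named cells (horizontal, percent) and the share of the cluster's own name among the 15 nearest cells of any name (vertical, percent). The c22 points lie between 68.0% and 73.5% on the horizontal axis, apart from the c24 points at 24.8% to 37.6%; on the vertical axis c22 runs from 17.3% to 75.1% and overlaps c24.

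Each cluster was split into separate patches. Cells of 1 cluster were joined into a patch where they lay densely within 0.5 embedding units of each other, and patches of at least 15 cells were numbered by size. These groups were defined after the positions had been seen and carry no test. Neighbour and own-name values of a patch are means over its cells pooled from all libraries, each cell matched within its own library. Cluster c22 formed 3 patches of 144, 65 and 18 cells, with 48 cells scattered. Cluster c24 formed 2 patches of 690 and 268 cells, with 42 cells scattered. The main patch held 52.4% of c22, the second lowest such share among the 31 clusters with at least 100 cells, and 69.0% of c24, rank 7 from the lowest. Such a split was not particular to them. Fibroblast c26 formed 3 patches with 58.7% of its cells in the main one (rank 3), and Fibroblast c21 formed 2 with 81.7%. Interstitial Cell Lineages c16 formed 1, with 99.1%.

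The differently named neighbours of patch 1 of c22 were almost wholly Fibroblast c21 (99.1%), and the own-name share of the patch was 77.1%. Within 1 embedding unit of its median lay 113 cells, 90.3% of them c22. The 48 scattered c22 cells also had Fibroblast c21 (48.1%), Fibroblast c26 (10.4%) and NPC c25 (10.4%) among their neighbours, 64.9% of which were stroma. Patch 1 held 62.6% of the c22 cells of dissected library 600 and 38.2% of those of dissected 628, against 49.3%, 50.9% and 35.7% for vortexed 623, 627 and 632. Patch 1 of c24 had an own-name share of 60.9%, and its neighbours were Fibroblast c26 at 37.5%, Podocyte c20 at 37.5%, NPC c25 at 13.9% and Epithelial c23 at 11.0%. It held 83.1% and 68.4% of c24 cells in libraries 600 and 628, and 60.5%, 68.0% and 60.0% in libraries 623, 627 and 632. The median positions of the main patches were 10.5 embedding units apart, and cells within 1 unit of either median included 0 cells of the other cluster.

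**Figure D4:**
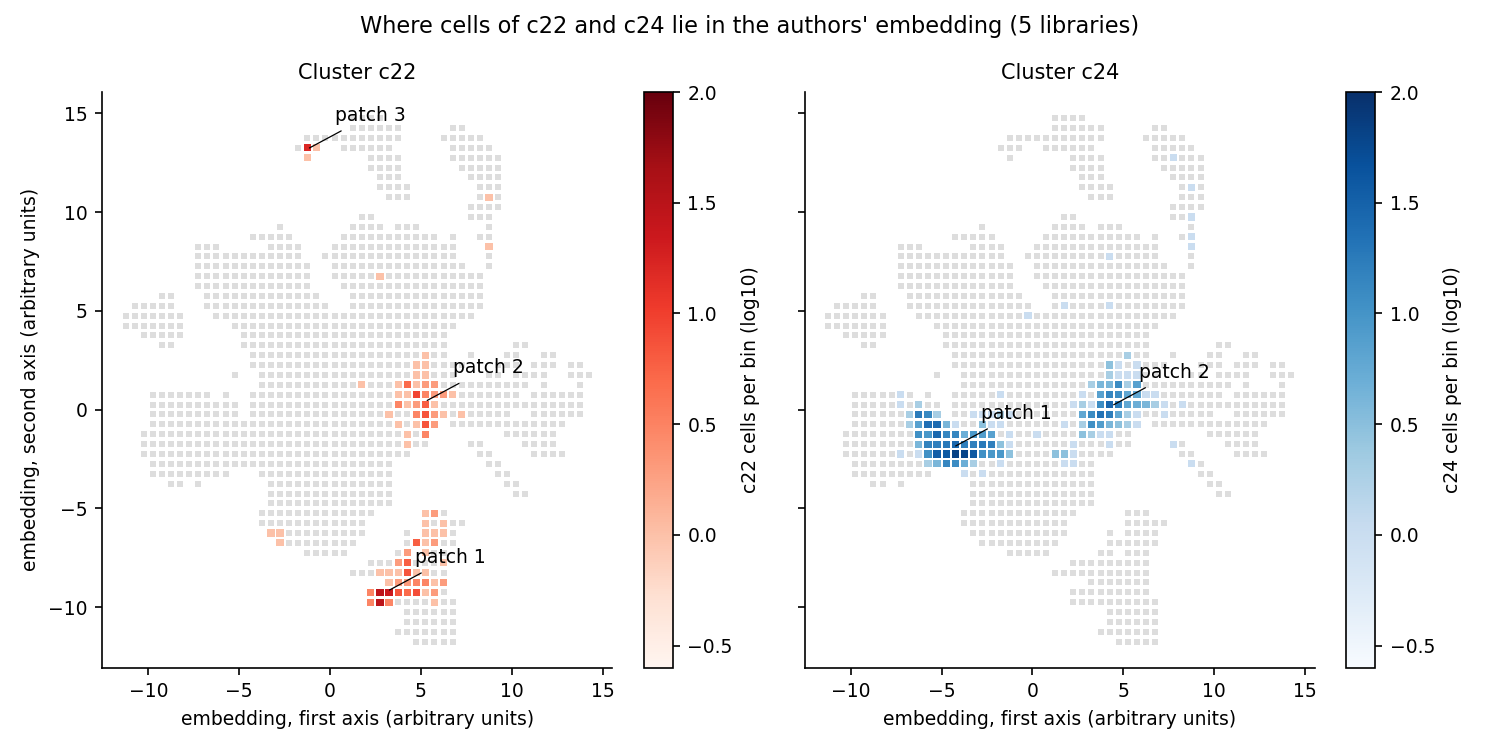
Positions of c22 cells (left, red) and c24 cells (right, blue) in the authors' embedding, pooled over 5 libraries in bins of 0.5 units; grey bins hold other cells, and colour gives the log10 number of the cluster's cells per bin. The main patches of c22 (144 cells) and c24 (690 cells) lie far apart, whereas patch 2 of c22 (65 cells) and patch 2 of c24 (268 cells) lie in the same area.

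The second patches lay in the same place. The medians of patch 2 of c22 and patch 2 of c24 were 0.905 units apart, against 9.82 units between patches 1 and 2 of c22 and 8.94 units between those of c24. Cells there had few neighbours of their own name, 6.26% for c22 and 9.55% for c24, and the neighbours carried many names. Beside patch 2 of c22 lay Fibroblast c26 (18.5%), NPC c25 (15.5%), Fibroblast c21 (11.1%) and Proximal tubule c18 (11.0%), and beside patch 2 of c24 lay NPC c25 (32.9%), Fibroblast c26 (23.03%) and Proximal tubule c18 (9.23%). Within 1 unit of either median there were 2672 cells with 32 of the 37 cluster names, 27.9% of them named by a cell cycle phase. When phase-named clusters were kept among the neighbours, they made up 36.5% of those of patch 2 of c24 and 3.10% of those of patch 1 of c24.

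This mixed area held 17.8% of c22, 19.0% of c24 and 7.41% of all cells. Since it was centred on patches of c22 and c24, their high shares follow from how it was drawn. Fibroblast c26, which was not used to draw it, had 24.3% of its cells there. The area held 5.05% of c22 cells in library 600 and between 21.4% and 27.4% in libraries 628, 623, 627 and 632, and 10.2% of c24 cells in library 600 against 16.4% to 23.3% in the same 4 libraries. Library 600 also had the fewest cells of any name there, 2.05%, against 4.11% to 12.5% in the other libraries. The table holds no molecules per cell and no doublet calls for these cells.

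Patch 3 of c22 belonged almost entirely to library 600. Of its 18 cells, 17 came from dissected library 600 and 1 from dissected library 628, and 0 from the vortexed libraries, where 0 of 73, 0 of 55 and 0 of 14 c22 cells lay there. Podocyte c20 made up 94.4% of the neighbours of these cells and stroma 1.85%. Within 1 unit of the median of patch 3 lay only 71 cells of 2 names, 18 of them c22 and the rest Podocyte c20. Podocyte c20 held 2016 cells in all and itself formed 2 patches, with 94.6% and 3.32% of its cells. That median was 15.4 units from the median of patch 1 of c24, which also had podocytes among its neighbours. The patch 3 cells were 17.2% of the c22 cells of library 600. Without them the mean share of stroma among the neighbours of c22 was 75.9% in place of 71.8%.

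**Figure D5:**
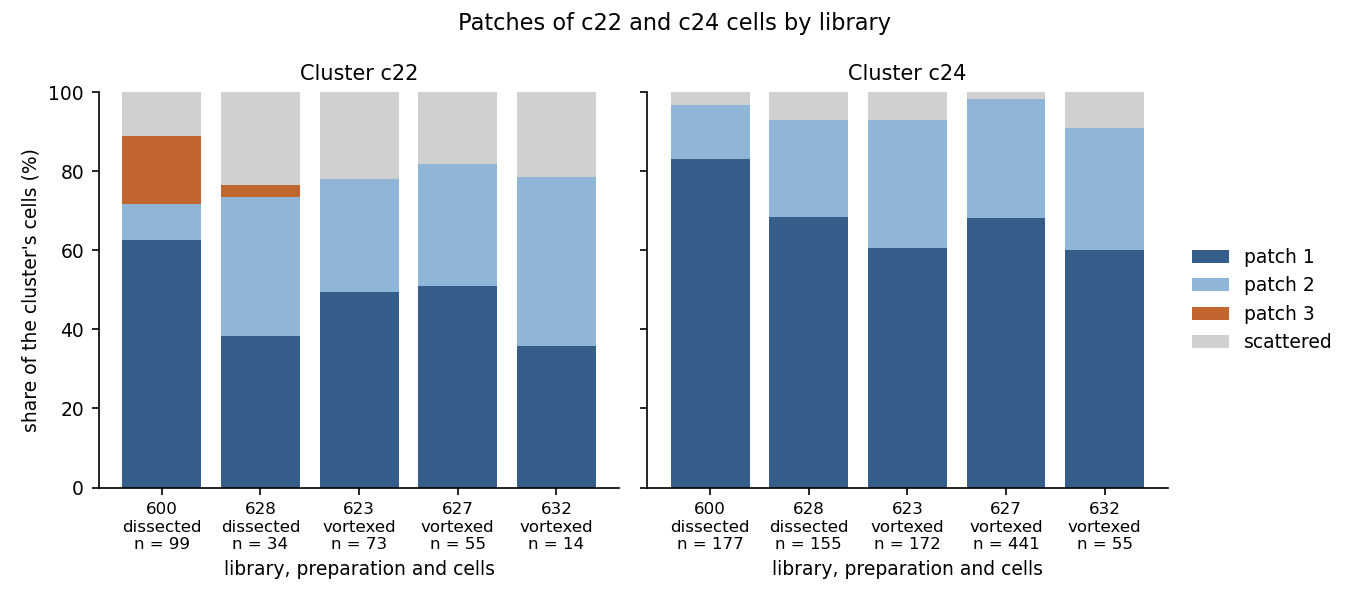
Share of the c22 cells (left) and c24 cells (right) of each library that lie in each patch, in percent, with the number of cells of the cluster under each bar. Patch 3 of c22 appears only in dissected libraries 600 (17.2%) and 628 (2.94%), and patch 2 is smallest in library 600 for both clusters (9.09% and 13.6%).

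Phase-named clusters were no more frequent beside the 2 clusters than elsewhere on the mean. They made up 13.5% ± 7.37 of the neighbours of c22 (SD, n = 4), against 15.7% of the other cells, and 12.3% ± 3.79 of those of c24 (SD, n = 5), against 13.9%. Single libraries went both ways. For c22 the share was 21.9% in library 600, a 3.99-fold excess, and 3.93% in library 623, where it was 0.244-fold the share among other cells. For c24 it was 2.44-fold in library 632 and 0.585-fold in library 627.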

How the data were processed

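Cells of cortex-enriched fetal rhesus kidney were sequenced by the authors with the 10x Genomics 3' kit, per the labels' protocols. Per the submitters' processing notes, the tools were Seurat and Cell Ranger 6.0.1 and a build named was hg19, with no steps assigned. How cells and doublets were filtered, integrated and clustered is not given in the sources used here. In the 1 table that the authors deposited, with a row per cell, the 2 embedding positions are unitless scores, per the file headers. Rows of the 11 library names that matched no sample title (58227 rows) were not used. Among the 36039 cells used, 286 carry 1 of 143 barcodes that stand in 2 libraries. They include 8 of the 275 c22 cells and 10 of the 1000 c24 cells. The full identifier of 1 c24 cell also stands in a library not used. No libraries were duplicates: the smallest chi-square between a pair was 25.3 per degree of freedom.

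Shares, exact intervals and neighbours were computed in Python 3.11.15 (scipy 1.17.1, scikit-learn 1.9.0). Preparations were compared with limma 3.58.1 (R 4.3.3) on log2 odds (0.5 cells added, clusters of 10 or more cells) or by exact permutation. That fit was checked on simulated compositions with large known changes in rare clusters, and with a set spread below that of many clusters here. The check required the right direction and few false calls. It does not show that smaller changes would be called. Clusters c22 and c24 and the other stromal clusters were named by rule, with any cluster averaging at least 10% of neighbours. Clusters, lists and tests were chosen with earlier results of these data known. Patches, the mixed area and the ranks of evenness were added after the positions and shares had been seen. Marker lists fixed for the clusters could not be used without gene values.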

Additional observations from a re-analysis of the deposited data

Results flagged for a closer look

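Over 26 measures of the 2 clusters, each taken over 4 or 5 libraries, 6 had a library far from the others by Dixon's criterion; chance flags about 5% of such groups, and the measures share cells, so they are not independent. The 4 values of library 600 concern c22. It held 1.45% c22 cells, against 0.524% to 0.744% in the other libraries, and 12.8% of its stroma was c22, against 1.79% to 4.50%. Of its c22 cells 17.2% lay in patch 3, against 0% to 2.94% elsewhere, and Podocyte c20 made up 18.5% of their neighbours, against 0.121% to 0.392%; podocytes were 19.0% of the other cells of that library. Without the cells of patch 3, the share of c22 in stroma was 4.19 points higher in dissected than in vortexed libraries, in place of 5.22. In library 628 stroma made up 68.0% of the neighbours of c22, against 72.7% to 73.5% in the others. In library 632 the own-name share of c24 was 32.7%, against 44.4% to 46.2%.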

How the results depend on the processing

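Of 114 alternative values, 101 kept their direction and their side of the threshold, or stayed within 1 SD. Part of this count could hardly differ. No exact test could give a p below 0.05 in any setting, so its side of the threshold was fixed beforehand. The own-name share of c22 had an SD of 23.9, so alternative means from 31.3% to 51.8% all counted as unchanged. No call could be lost, since none was made. With phase-named cells left out of the total, the combined share of c22 and c24 differed by -0.244 points (dissected minus vortexed) in place of 0.204, and with 0.1 cells added the log2 odds ratio of c24 was 1.7e-05. With 1 library left out, the combined difference ranged from -0.321 (without 600) to 0.912, also turning below 0 without 623 or 632. The log2 odds ratio of c22 ranged from -0.16 to 1.27, that of c24 from -0.27 to 0.38 and the difference in log2 ratio from -0.12 to 1.22. The mean log2 ratio of c22 to c24 ranged from -2.08 to -1.54. As a share of stroma, the difference in c24 was 10.5 points with c16 left out of the stroma and 3.51 with c26 left out, and that in c22 was 8.90 with c16 left out and 9.69 without library 628. Stroma made up 64.6% of the neighbours of c22 with 50 neighbours, 63.2% with phase-named cells kept, 99.2% in patch 1 alone and 75.9% without patch 3; the last 2 settings were chosen after seeing the data. Fits without 1 dissected library assume that the lone one varies like the vortexed ones. No paired analysis was possible because the labels give the preparations no shared replicate numbers.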
